A study of Mus musculus with 3 samples.

Results

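The cornified envelope genes of periderm comprise Lor, Scel, Sprr1a, Sprr1b, Evpl and Ppl, 6 genes chosen by name and looked up by gene symbol in the annotation of the array. Of the 6 genes, 5 had a probe set, out of 8251 genes with one. These 5 genes were covered by 7 of 12422 non-control probe sets, a probe set being the group of short oligonucleotides that measures 1 transcript. No probe set named Evpl, which was not analysed here. RNA was taken from the medial edge epithelium, the tissue at the tips of the palatal shelves, of CF-1 mice at stage ED13.5. The 0 h group was unfused epithelium, the 12 h group was fused and had been cultured for 12 h from first contact of the shelves, and the 24 h group was fused, cultured for 24 h and labelled as undergoing epithelial-mesenchymal transformation. All 3 samples were freed with Dispase II and their RNA was amplified. Only the 12 h and 24 h samples were cultured, so fusion and culture cannot be told apart. There was 1 array per time point, and no ratio has a replicate error or a p-value. The comparison of 12 h with 0 h is called the first interval, that of 24 h with 12 h the second interval, and that of 24 h with 0 h the whole interval; every ratio has the later time on top.

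Periderm is the flattened outer cell layer of embryonic stratified epithelia, and on the palatal shelves it covers the cells that will form the midline seam. The cornified envelope is a sheath of protein that transglutaminases cross-link beneath the plasma membrane of terminally differentiating keratinocytes. Plakin proteins, envoplakin and periplakin, lie under the membrane first and tie the envelope to desmosomes and keratin filaments. Loricrin and the small proline-rich proteins are then cross-linked onto this scaffold, loricrin as bulk material and the small proline-rich proteins as bridges between other chains. Sciellin is a further precursor of envelopes in stratified epithelia.

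The promoters of Lor, Scel, Sprr1a and Sprr1b are shown so that these members can be compared in sequence. The promoter table used here listed these 4 members, and Ppl and Evpl were not searched. Each sequence is the 250 bases upstream of the start, from RefSeq (GRCm38.p6), written 5′ to 3′ on the strand of the gene. Capitals mark the AP-1 motif TGANTCA and the TATA box TATAAA.
Lor promoter (chr3:92083143-92083392, strand -): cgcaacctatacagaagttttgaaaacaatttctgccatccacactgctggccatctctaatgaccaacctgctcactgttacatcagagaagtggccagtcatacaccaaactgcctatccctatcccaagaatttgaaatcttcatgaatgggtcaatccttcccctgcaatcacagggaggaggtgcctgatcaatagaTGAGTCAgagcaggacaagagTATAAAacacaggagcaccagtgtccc
Scel promoter (chr14:103513091-103513340, strand +): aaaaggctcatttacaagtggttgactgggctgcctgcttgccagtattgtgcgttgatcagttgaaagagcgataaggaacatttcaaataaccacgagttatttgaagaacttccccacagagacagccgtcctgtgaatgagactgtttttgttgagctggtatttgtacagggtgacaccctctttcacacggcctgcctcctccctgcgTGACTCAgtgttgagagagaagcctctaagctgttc
Sprr1a promoter (chr3:92485882-92486131, strand -): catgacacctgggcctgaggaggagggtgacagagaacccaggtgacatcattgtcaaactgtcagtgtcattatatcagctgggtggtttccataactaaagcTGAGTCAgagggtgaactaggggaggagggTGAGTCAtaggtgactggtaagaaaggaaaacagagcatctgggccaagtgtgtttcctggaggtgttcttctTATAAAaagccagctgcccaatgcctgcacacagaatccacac
Sprr1b promoter (chr3:92438780-92439029, strand -): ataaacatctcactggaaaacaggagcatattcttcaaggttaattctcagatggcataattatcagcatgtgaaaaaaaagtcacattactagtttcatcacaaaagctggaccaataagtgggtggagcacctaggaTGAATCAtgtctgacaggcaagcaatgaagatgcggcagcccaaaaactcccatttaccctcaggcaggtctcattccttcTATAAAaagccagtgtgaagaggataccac
The AP-1 motif was searched as a loose form of the sequence bound by Fos and Jun dimers, with any base at its centre. It occurred in 4 of these 4 promoters and in 6.75% of 32851 promoter windows of the same length. The centre base was G in Lor and in both Sprr1a copies, C in Scel and A in Sprr1b. The first base of the motif lay 48 bases before the start in Lor, 36 in Scel, 146 and 116 in the 2 copies of Sprr1a, and 111 in Sprr1b. The TATA box was found in Lor, Sprr1a and Sprr1b, against 12.4% of all windows, and its letters were not in the Scel window. CACCC, a core motif of Klf factors, was present in Scel, Sprr1a and Sprr1b and in 52% of all windows. One of the Sprr1a copies of CACCC, on the opposite strand, overlapped the AP-1 motif that starts 116 bases upstream. The Grainyhead-like motif AACCNGTT was in none of the 4 windows and in 1.79% of all windows. All motifs were searched on both strands, and a match describes the letters alone.

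Values below are signals scaled to a common trimmed mean over the 3 arrays, in arbitrary units. A signal at or below the floor of 13.53, the pooled 40th percentile, was treated as unmeasured. By this rule 4 of the 5 genes were measured on all 3 arrays. The trimmed means before scaling were 93.7, 58.1 and 46.8 in order of time. The 3′ to 5′ signal ratio of the control transcript Gapdh was 0.828, 14.9 and 12.6 at 0, 12 and 24 h, and that of Actb 1.02, 11.9 and 2.97. Their part in the ratios of the envelope genes was not tested. As a gauge of size, the log2 ratio of different probe sets for 1 gene had an SD of 1.24 in the first interval over 672 genes. That SD was 0.82 in the second interval over 687 genes and 1.07 in the whole interval over 748 genes.

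Lor, the loricrin gene, had the highest ratio of the envelope genes in the whole interval, and its signal was ordered with time. Its brighter probe set gave a scaled signal of 29.3 before culture, 52.2 after 12 h and 113 after 24 h. The deposited signals were 43.3, 47.9 and 83.1, in the same order. Lor was 1.78-fold higher over the first interval, 2.16-fold over the second and 3.85-fold over the whole. The log2 ratio of the whole interval, 1.94, was larger than the SD between probe sets of 1.07, and that of the second interval, 1.11, was larger than 0.82. In the first interval the log2 ratio of 0.84 was smaller than the SD of 1.24. Among 5228 genes above the floor at both 24 h and 0 h, 95.7% had a lower ratio than Lor. The other Lor probe set gave 2.03, 1.96 and 3.52, below the floor on every array. The time course of Lor therefore rests on 1 probe set, whose name carries the suffix r, which marks a set for which rules of probe selection were relaxed. With the values as deposited the log2 ratio of the whole interval was 0.94, under the 2-fold rule, and that of the second interval was under it too without scaling (0.79), with median centring (0.82) and with quantile normalization (0.85).

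Sprr1a, a small proline-rich bridge of the envelope, showed the same order of signals with smaller steps. Its probe set gave 38.0 at 0 h, 45.7 at 12 h and 63.7 at 24 h. The log2 ratios were 0.27 in the first, 0.48 in the second and 0.75 in the whole interval, each smaller than the SD between probe sets for that comparison. As deposited, the signals were 56.2, 41.9 and 47.0, and the signs of the first and the whole interval were the opposite, at -0.42 and -0.26.

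Sprr1b, its closest relative among the 5 genes, was lower at 12 h. Its brighter probe set gave 1263 at 0 h, 582 at 12 h and 966 at 24 h. At 12 h Sprr1b was 2.17-fold lower than at 0 h, a log2 ratio of -1.12 that was smaller than the SD between probe sets of 1.24 and that was -0.66 after median centring. At 24 h it was 1.66-fold higher than at 12 h and 1.31-fold lower than at 0 h. The deposited signals of 1868, 534 and 713 had the same order. Its other probe set gave 1.42, 8.40 and 1.08, below the floor on every array. Like that of Lor, the time course of Sprr1b thus rests on 1 probe set with the suffix r. The small proline-rich genes are close in sequence, and the suffix f of the dimmer set marks probes shared within a gene family, so their assignment to single genes is uncertain. In the first interval Sprr1a and Sprr1b lay on opposite sides of the middle of all genes, with 63.9% and 22.1% of 4904 genes having a lower ratio.

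Scel, the sciellin gene, was above the floor at 12 h alone. It read 3.99 at 0 h, 45.4 at 12 h and 12.7 at 24 h, the last just under the floor. Scel was at least 3.35-fold higher in the first interval and at least 3.35-fold lower in the second. Both sizes are bounds against the floor. No ratio is given for the whole interval, where both signals were unmeasured. The deposited signals of 5.9, 41.6 and 9.4 had the same order. With the floor at the 60th percentile, a signal of 35.1, the bound shrank to a log2 ratio of 0.37, and with no floor the log2 ratio of the first interval was 3.51.

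Ppl, the periplakin gene and the measured scaffold member, had ratios below 2-fold in all 3 comparisons. Its signals were 88.1 at 0 h, 74.1 at 12 h and 119 at 24 h. The log2 ratios were -0.25 in the first, 0.69 in the second and 0.44 in the whole interval, all smaller than the SD between probe sets. The sign of the first interval was positive after median centring (0.20) and after quantile normalization (0.09), and that of the whole interval was negative with values as deposited (-0.57). The direction of Ppl between the unfused and the cultured epithelium thus depends on the scaling. In the second interval the log2 ratio of Ppl was positive under every scaling tried. It was lowest when the arrays were left unscaled (0.37), and quantile normalization gave 0.50. The other alternatives could not change this ratio, because Ppl has 1 probe set, without a suffix and above every floor tried.

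**Figure D1:**
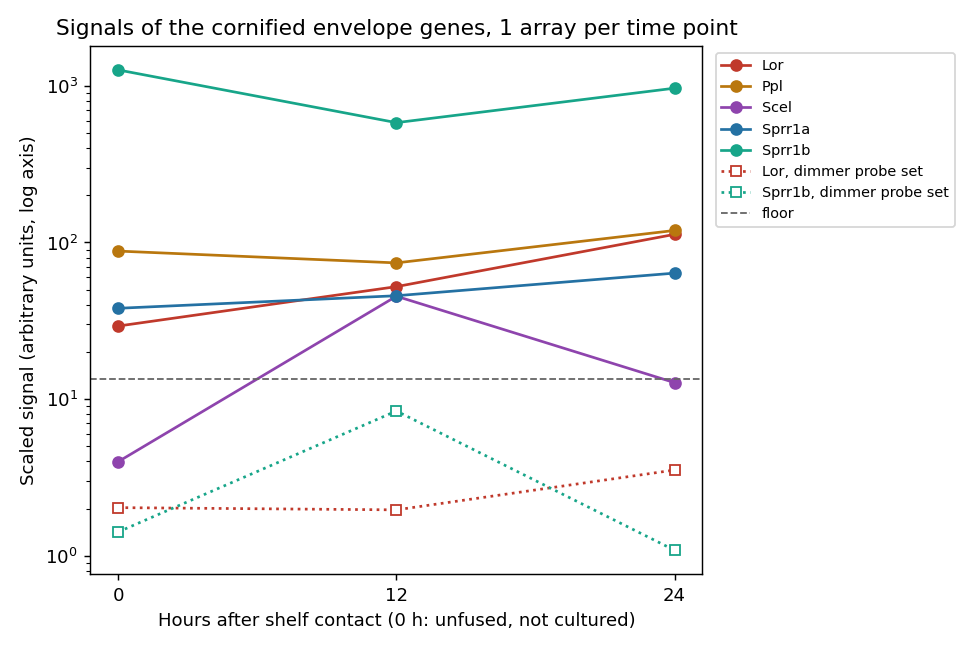
Scaled signal (log axis, arbitrary units) of each probe set of the 5 genes at 0, 12 and 24 h, with 1 array per time point and the floor of 13.53 as a dashed line. Lor and Sprr1a are ordered with time, Sprr1b is lowest at 12 h, Scel is above the floor at 12 h only, and the dimmer probe sets of Lor and Sprr1b stay below the floor.

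In the first interval, 1 of the 5 genes (Scel) was at least 2-fold higher and 1 (Sprr1b) at least 2-fold lower, where 17.7% of 6379 genes were higher and 27.3% lower by the same rule. In the second, 1 gene (Lor) was higher and 1 (Scel) lower, against 18.8% and 12% of 6141 genes. Over the whole interval, 1 of 4 genes with a ratio (Lor) was higher and 0 were lower, against 14.5% and 17.7% of 6392 genes. With so few genes these counts do not set the envelope genes apart from the background. The median log2 ratio of the members was 0.27, 0.69 and 0.59 in the 3 comparisons, beside -0.21, 0.17 and -0.08 over all genes. The comparisons share arrays in pairs, so their ratios are not independent of each other.

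**Figure D2:**
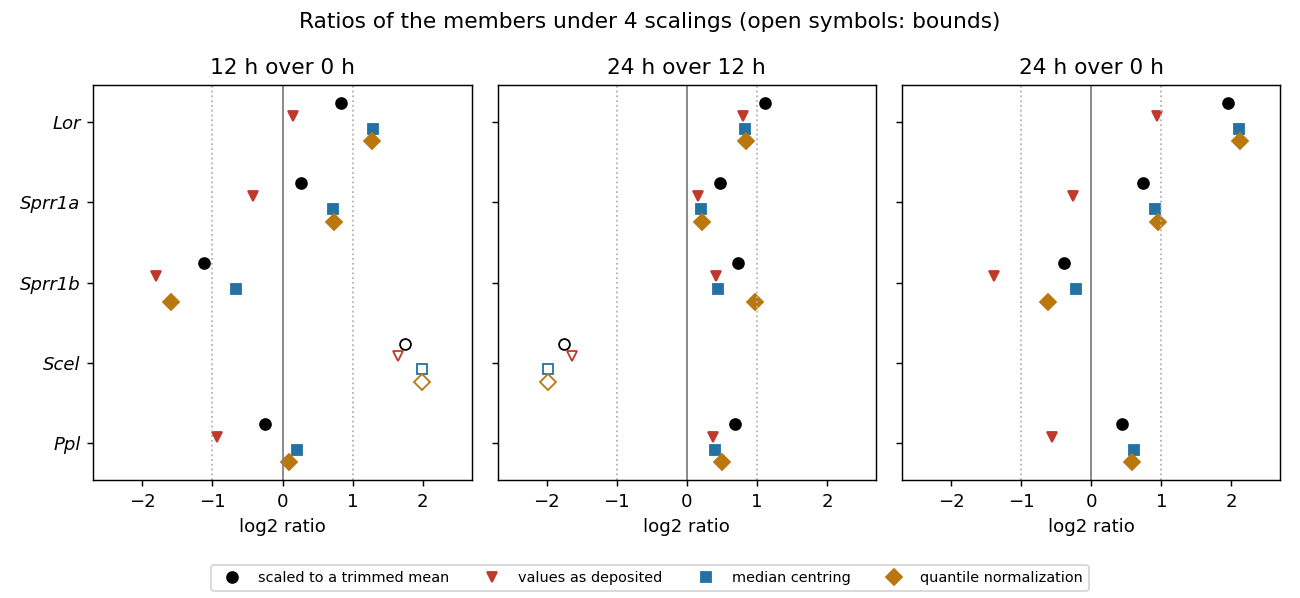
Log2 ratio of each member for the 3 comparisons under the trimmed-mean scaling, values as deposited, median centring and quantile normalization; dotted lines mark 2-fold and open symbols are bounds against the floor. Lor is right of 0 in every panel and Sprr1b left of 0 in both panels against 0 h, while the symbols of Sprr1a and Ppl lie on both sides of 0 in the panel of 12 h over 0 h.

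A rank among all genes does not move with 1 scaling factor per array, apart from the floor, and 4 members could be ranked. In the second interval, when both tissues had been cultured, all 4 had ratios in the upper part of the distribution. Of 5006 genes, 85.4% had a lower ratio than Lor, 74.0% than Sprr1b, 72.5% than Ppl and 65.1% than Sprr1a. Over the whole interval the order was Lor (95.7%), Sprr1a (79.6%), Ppl (69.9%) and Sprr1b (36.6%), out of 5228 genes. In the first interval it was Lor (77.1%), Sprr1a (63.9%), Ppl (46.6%) and Sprr1b (22.1%), out of 4904 genes.

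**Figure D3:**
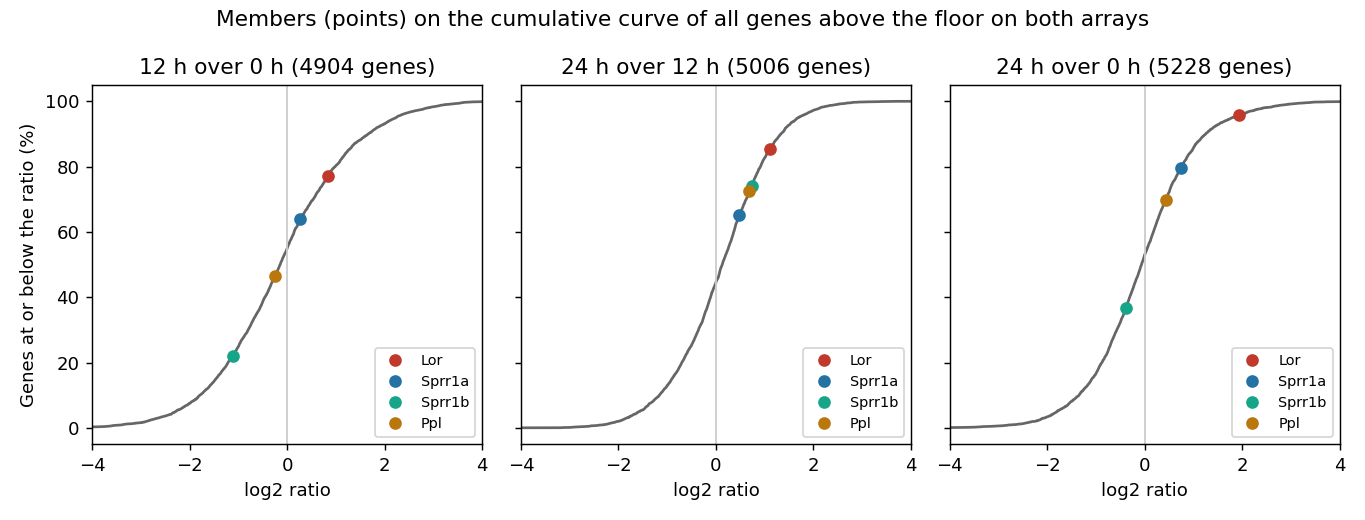
Cumulative share of genes (%) by log2 ratio for genes above the floor on both arrays of each comparison, with the 4 measured members as points on the curve. Sprr1b lies at 22.1% in the left panel and at 74.0% in the middle one, and Lor at 95.7% in the right one.

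In pattern, many other genes lay closer to each ranked member than its nearest fellow member did. Likeness was the distance between 2 genes in the pair of log2 ratios of the first and second interval, over 4682 genes above the floor on all 3 arrays. The member nearest to Lor was Sprr1a, at a distance of 0.85, and 246 other genes were closer. The member nearest to Sprr1a was Ppl, at 0.56, with 528 genes closer, and the member nearest to Sprr1b was Ppl, at 0.87, with 1151 genes closer. Genes most alike to Lor were Alkbh5 (0.040), Irf7 (0.045) and Gtf2e2 (0.13), and 63 genes lay within 0.5. Those most alike to Sprr1a were Synj2 (0.011), Ulk2 (0.023) and Dhx15 (0.028), those to Sprr1b Dhrsx (0.011), Clptm1l (0.015) and Eef1b2 (0.021), and those to Ppl Pnp (0.019), Fadd (0.023) and Susd6 (0.031). With 442, 473 and 536 genes within 0.5 of Sprr1a, Sprr1b and Ppl, such neighbours are common over 3 arrays. The distances to the nearest member were near or below the SD between probe sets of 1 gene, 1.24 in the first and 0.82 in the second interval. A difference in pattern between these members is therefore not established.

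The nearest relatives of Sprr1a and Sprr1b, the Sprr2 genes, mostly had positive ratios below 2-fold in the second interval. Of 9 Sprr2 genes with a probe set, 5 were measured on both of these arrays, and 5 of the 5 had a positive log2 ratio, between 0.38 and 1.36. By bounds, Sprr2j-ps was positive (0.30), and Sprr2f (-0.06) and Sprr2k (-0.29) were negative. The median of all genes was also positive in this interval, at 0.17, and 18.8% of all genes were at least 2-fold higher. Sprr2i, the one above 2-fold, gave 162 at 24 h against 63.4 at 12 h, and Sprr2b 46.8 against 24.5. In the first interval, 2 of 5 measured ratios were positive and 3 negative, between -0.47 and 0.42. The suffix of 7 of these 9 probe sets marks possible cross-hybridization, so the Sprr2 genes are not independent of each other. Sprr3 had 17.9 at 0 h, a signal below the floor at 12 h (5.24) and 14.4 at 24 h.

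Other late envelope precursors were near or under the floor. Ivl, the involucrin gene, had signals of 0.811, 0.873 and 0.136 at 0, 12 and 24 h, and Rptn and Tchh were below the floor on every array. Flg, which encodes the filament-aggregating protein filaggrin, had 19.6, 19.0 and 28.6, and its other probe set was below the floor on every array. Of the cross-linking enzymes, Tgm3 was below the floor throughout, and the broadly expressed Tgm2 was 2.19-fold higher at 12 h (39.3) than at 0 h (17.9). Tgm1 and Tgm5, also listed, had no probe set naming a single gene and were not measured. Among 15 precursor genes with a probe set, members aside, 5 were below the floor on every array by their counted set. Of these, Crct1 had a dimmer set above the floor at 24 h only, with 2.16, 9.71 and 21.4. Flg, Sprr2b and Sprr2d were less than 2-fold above the floor at 0 and 12 h, with Sprr2b at 18.4 and 24.5 and Sprr2d at 18.9 and 20.3. For such genes no 2-fold lower ratio could be called, so the floor limits the counts of lower genes. In the first interval 0 of the 10 with a ratio were 2-fold different in either direction, beside 17.7% higher and 27.3% lower of all genes. In the second interval 1 of 10 (Sprr2i) was higher and 0 lower, beside 18.8% and 12%. Over the whole interval 1 of 8 (Sprr2b) was higher and 0 lower, beside 14.5% and 17.7%.

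Over a list of 64 further genes of cornification and keratinocyte differentiation with a probe set, 15 of 50 with a ratio (30.0%) were at least 2-fold higher over the first interval and 9 (18.0%) lower, beside 17.7% and 27.3% of all genes. In the second interval 13 of 48 (27.1%) were higher and 6 (12.5%) lower, beside 18.8% and 12%. Over the whole interval 15 of 45 (33.3%) were higher and 3 (6.67%) lower, beside 14.5% and 17.7%. The list medians were 0.08, 0.26 and 0.55 on the log2 scale. The desmosomal plakin Dsp, to which the envelope is anchored, was 4.73-fold higher at 12 h (739) than at 0 h (156), whereas its partner Jup was below the floor at 12 h (4.14) and had 57.6 at 0 h. Anxa1, a membrane-binding annexin found in envelopes, was 9.58-fold higher at 12 h and 2.88-fold higher at 24 h than at 0 h. Its other probe sets gave log2 ratios of 1.25 and 2.22 in the first interval. The differentiation keratin Krt10 had signals of 28.3, 262 and 108 at 0, 12 and 24 h, highest at 12 h like Scel, while its partner Krt1 had 47.2, 30.9 and 45.6. Krt6a and Krt4, keratins of activated and of internal stratified epithelia, were ordered with time like Lor, with Krt6a at 157, 532 and 1163 and Krt4 at 56.6, 88.7 and 185. The other Krt6a probe set was lowest at 12 h, at 24.8, against 56.3 at 0 h. Klf4, a transcription factor of barrier formation, was highest at 12 h, with 260, 675 and 172. The other probe sets of Dsp, Krt10, Krt4 and Klf4 were below the floor on every array, so each of these time courses rests on a single set. The desmosomal plaque protein gene Pkp1 was 8.11-fold higher over the first interval, with signals of 29.9, 242 and 251, but the second Pkp1 set had a log2 ratio of only 0.18 there. Krt17, a keratin of activated and early epidermis, was lowest at 12 h, at 246, 78.9 and 381, and all 3 of its probe sets were lowest then. Cstb, a cystatin, had 550, 540 and 331, and S100a10 had 759, 650 and 390. A dimmer S100a10 set was highest at 12 h, with 27.7, 51.4 and 28.3. The brightest Krt13 set was unmeasured at 0 h and had 29.7 at 12 h and 22.1 at 24 h. Another Krt13 set had the same direction, with 3.31, 21.9 and 20.5. A further set was above the floor at 0 h only, with 19.3, 11.8 and 8.13, so the direction of Krt13 depends on the probe set.

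Genes of the same list that are not direct parts of the envelope also differed in both directions. Of these, the highest measured ratios in the first interval were those of Dsc2 (18.9-fold), Emp1 (6.23-fold), Cdkn1a (4.80-fold) and Perp (4.05-fold). The Dsc2 ratio came from a set with the suffix f, and the other Dsc2 set was below the floor on every array (7.17, 9.05 and 7.19). The other Cdkn1a set had a log2 ratio of 0.90, under the 2-fold rule. The lowest measured ratios were those of Notch1 (2.77-fold lower), Cebpa (2.65-fold lower), Prss8 (2.46-fold lower) and Pnn (2.11-fold lower). The other probe sets of Notch1 and Prss8 had the opposite sign: that of Notch1 gave a log2 ratio of 0.85, and that of Prss8 had signals of 27.2 at 12 h and 8.79, below the floor, at 0 h, so the direction of both genes depends on the probe set. The tight junction gene Cldn4 was at least 15.2-fold lower and Sfn, which encodes 14-3-3 sigma, at least 9.71-fold lower, both with signals below the floor at 12 h. In the second interval, within the same genes, Cdkn1a (6.42-fold) and Notch1 (5.19-fold) had the highest measured ratios, and the other Notch1 set had a log2 ratio of -0.13. Cldn4 was at least 6.10-fold and Elf3 at least 5.85-fold higher by bounds. Klf4 (3.92-fold lower) and Dsc2 (2.59-fold lower) had the lowest ratios of these genes, while Anxa1, a direct part of the envelope, was 3.33-fold lower.

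**Figure D4:**
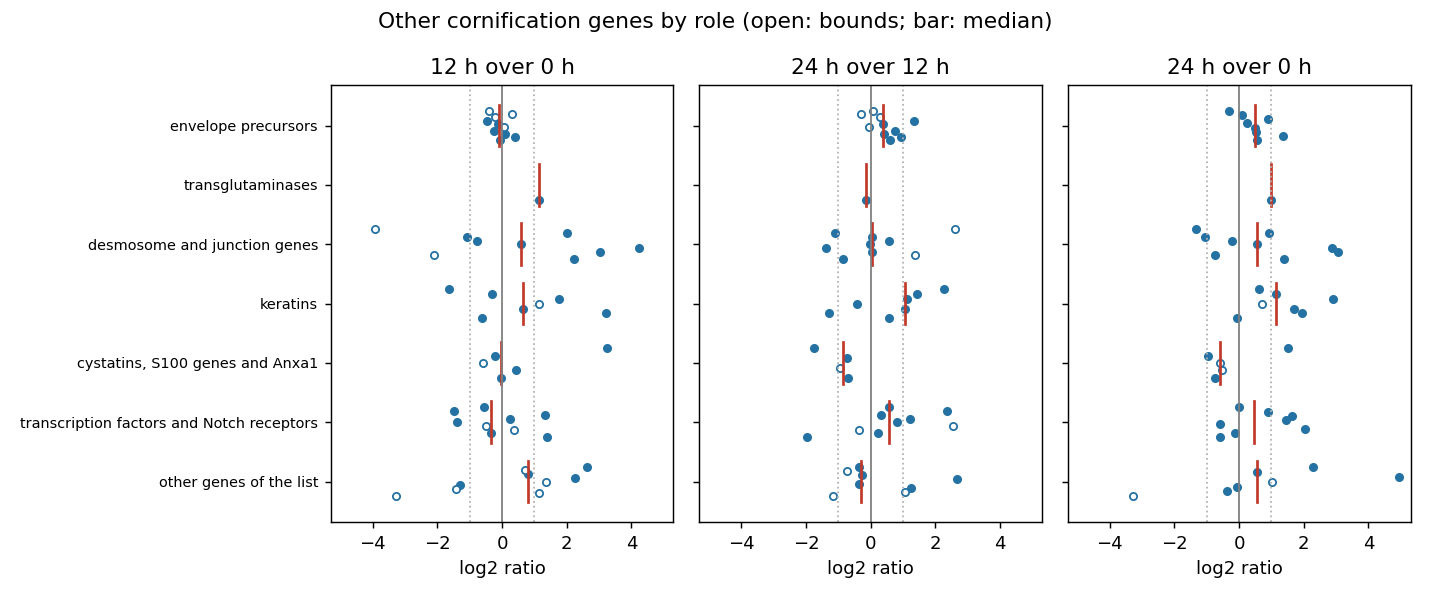
Log2 ratios of the other cornification genes by role for the 3 comparisons, with open symbols for bounds, a bar for each group's median and dotted lines at 2-fold. Envelope precursors lie within 2-fold in the left panel, while desmosome genes and keratins spread to both sides of 0.

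Markers of other cells were looked up on the same arrays. Their 2-fold counts stand beside 17.7% of all genes higher and 27.3% lower in the first interval. The shares of all genes were 18.8% and 12% in the second interval, and 14.5% and 17.7% over the whole. In bulk RNA, fewer cells of a type and less RNA per cell cannot be told apart. The basal keratinocyte keratins Krt5, Krt14 and Krt15 were below the floor on every array, although the basal regulator Trp63 was above it with 75.9, 230 and 67.4 at 0, 12 and 24 h. Basal keratinocyte markers, 12 of 14 with a probe set, had summed signals of 1002, 514 and 599. That order came from Igfbp2 (514, 14.4 and 143), and without it the sums were 488, 499 and 456. Of the 9 basal markers with a ratio in the first interval, 2 (22.2%) were at least 2-fold higher and 3 (33.3%) lower, near the shares of all genes. Simple epithelium markers, 8 of 8, had sums of 478, 617 and 989. Without Epcam (38.7, 265 and 77.1) these were 440, 352 and 912. In the first interval 1 of the 8 was higher and 0 lower, and in the second 4 were higher and 1 lower. Palate mesenchyme markers, 12 of 14 with a probe set, had 12, 10 and 11 above the floor at 0, 12 and 24 h and summed signals of 4413, 6739 and 7984. Without Col1a2 (289, 1711 and 3224) the sums were 4124, 5027 and 4760. The mesenchyme markers did not move as one: in the first interval 4 of 12 were higher, namely Col1a1, Col1a2, Col3a1 and Twist1, and 6 were lower, with a median log2 ratio of -0.76. Mfap2, an elastic fibre protein gene, had 775, 20.5 and 170, and Prrx2, a mesenchymal homeobox gene, 299, 14.9 and 341. In the second interval 4 of 11 mesenchyme markers were higher and 0 lower, and over the whole interval 3 of 12 were higher and 4 lower. Endothelial markers, 7 of 7, summed to 280, 531 and 553, and to 228, 267 and 393 without Cdh5, with 2 of 7 higher and 0 lower in the first interval. Erythroid markers, 5 of 6, summed to 6458, 1575 and 1496, and 5 of the 5 were lower in the first interval. Leukocyte markers, 8 of 8 with 5 below the floor throughout, summed to 125, 93.2 and 134. The part of these other cells in the ratios of the envelope genes was not tested.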

How the data were processed

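RNA of 3 samples was hybridized to 1-colour Affymetrix arrays after RiboAmp amplification and ENZO labelling, per the labels' protocols. The labels name Microarray Suite 5.0 and GeneSpring 6.0 and do not say which wrote the values. The deposited values are intensities, 1 linear signal per probe set, without detection calls, and no source used here says whether they had been scaled. Of 12488 probe sets, 66 controls were set aside, and 10833 of the rest name 1 gene. Symbols of 10817 were matched by gene identifier to RefSeq. The 0, 12 and 24 h arrays were multiplied by 0.676, 1.09 and 1.36 to reach a common 2% trimmed mean, floored at the pooled 40th percentile and taken to log2. A gene was counted by its brightest probe set on average and called at 2-fold. A ratio with 1 array at the floor is a bound. Python 3.11.15, pandas 2.3.3, numpy 2.4.6, scipy 1.17.1 and matplotlib 3.10.9 were used, and the procedure was tested on simulated data. The number of arrays, 1 per time point, limits the precision and leaves no test.

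The members and gene lists were chosen with earlier results of these data known. Named were all members, the direct parts of the envelope, up to 4 further list genes each way per comparison (not every one of these is printed) and the 3 genes nearest to each member in pattern. The grouping of the list by role and the sums of marker lists without 1 gene (the one whose signal differed most between 12 and 0 h) were chosen after the values were seen. The alternatives tried were no scaling, median centring, quantile normalization, a floor at the 20th percentile, at the 60th or none, the mean over probe sets, removal of suffixed probe sets and a 3-fold rule.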

Additional observations from a re-analysis of the deposited data

How the results depend on the processing

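No paired analysis was possible because each time point has 1 array and the labels give no replicate numbers; no replicate could be left out. Alternatives moved counts of members and of the cornification list as follows. With values as deposited, 0 members were higher in the second interval, and 0 were higher and 1 lower in the whole interval; of the list, 16 genes were lower in the first interval, 7 higher in the second interval, and 6 higher and 16 lower in the whole interval. After median centring 2 members were higher and 0 lower in the first interval, and 0 higher in the second interval. After quantile normalization these counts of higher members were 2 and 0. With the floor at the 20th percentile 2 members were higher in the whole interval, and 10 and 6 list genes lower in the second and whole interval. With the floor at the 60th percentile 0 members were higher and 5 list genes lower in the first interval, and 0 members lower in the second interval. Without a floor 15 list genes were lower in the first interval, 20 higher and 12 lower in the second interval, and 10 lower in the whole interval, where 2 members were higher. With the mean over probe sets 0 members were lower in the first interval, 0 higher in the second or whole interval, and 3 list genes lower in the second interval. Without suffixed probe sets, which leaves 3 members, the same 3 member counts were 0. At 3-fold, 0 members were lower in the first interval and 0 higher in the second interval, while Lor stayed above 3-fold in the whole interval; list counts were 9 higher and 4 lower, 5 and 2, and 9 and 1 in the 3 comparisons. No 2-fold member ratio changed sign under any alternative that gave it, but only the alternatives of scaling could have changed a sign. The cause of the other shifts was not tested.

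The share of all 2-fold differences that were higher was 39.3%, 61.1% and 45.0% in the first, second and whole interval, against 16.8%, 39.4% and 8.36% with values as deposited, 58.7%, 42.1% and 55.5% after median centring, and 51.1%, 50.9% and 51.1% after quantile normalization. The median log2 ratio of all genes was -0.83, -0.12 and -0.98 with values as deposited. Counts of all genes that moved by over 1.5 times were 603 higher and 2984 lower, 702 higher, and 296 higher and 3244 lower in these comparisons as deposited, beside 1128 and 1739, 1157, and 925 and 1130. They were 1112 lower in the second interval after median centring (737 before), in the 3 comparisons in turn 1141 lower, 660 higher and 717 lower with the 60th percentile floor, 1904 and 1257, and 1492 and 1765 for the second and whole interval without a floor, and 610 and 972, 455 and 281, and 424 and 496 at 3-fold.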

Other observations

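Lor, Sprr1a and Sprr1b lie in the epidermal differentiation complex, a cluster of barrier genes on mouse chromosome 3. Between S100a1 and S100a10, its outer genes in the RefSeq order, 70 protein-coding genes were listed, of which 28 had a probe set and 19 were above the floor on at least 1 array. This set was chosen after the values were seen. Of those with a ratio, 2 of 19 were at least 2-fold higher and 1 lower in the first interval, 2 of 18 higher and 1 lower in the second, and 3 of 17 higher and 0 lower over the whole, beside 17.7% and 27.3%, 18.8% and 12%, and 14.5% and 17.7% of all genes. S100a13 and S100a6, calcium-binding proteins of the cluster, were highest at 12 h, with signals of 123, 430 and 222 and of 122, 255 and 81.1 at 0, 12 and 24 h. S100a4, a calcium-binding protein also used as a fibroblast marker, was ordered with time like Lor, with 23.4, 43.2 and 56.4. Lor and Sprr2b were the other genes of the cluster above 2-fold over the whole interval.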
